A study of Mus musculus with 4 samples.

Results

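Cell cycle genes were followed as a module of 43 genes across CD45+ cells, the leukocytes, of mouse tumours. The members were chosen by gene symbol and not by their values, although earlier results of these data were known. All 43 were found among the 31253 features of the count matrices, on 16 chromosomes, with 8 on chromosome 2 and 6 on chromosome 11. Of these, 19 act at the start of or during DNA replication and are called S members here, and 23 act in G2 phase or mitosis and are called G2/M members. Stmn1 belongs to neither list.

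The tumours were subcutaneous MC38 grafts, a mouse colon carcinoma line, in mice that were 8 weeks old at injection, and they were collected on day 16 with no treatment. There were 2 libraries from WT mice and 2 from Ufl1 cKO mice, in which the series places the loss of UFL1, the ligase of the ubiquitin-like modifier UFM1, in T cells. The Cre driver and the deleted exons are not named in the labels, which also do not say whether the 2 libraries of a group came from separate mice, so p-values measure only the spread between these libraries. All 4 tumours were digested with collagenase, cryopreserved and thawed before 3′ single-cell RNA sequencing.

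A dividing cell first licenses and copies its DNA and then separates the copies. E2F factors drive the replication genes at the entry into S phase: the Mcm helicase subunits, the licensing factors Cdc6 and Cdt1, the polymerase clamp Pcna and the enzymes that supply nucleotides. The MuvB complexes with B-MYB and FOXM1 drive a later wave, which holds cyclin B, the kinases Cdk1, Plk1 and Aurora, the spindle and kinetochore proteins and the ubiquitin-conjugating enzyme Ube2c. In tumours, activated T cells and NK cells divide after antigen or cytokine signals, and some macrophages and conventional dendritic cells divide in the tissue, whereas circulating monocytes and plasmacytoid dendritic cells do so little.

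The split of the module was visible in the promoter letters. RefSeq promoters of GRCm38.p6, from 250 bases before to 50 bases after the start, were matched for 36 of the 43 members. The CHR element, searched as TTTGAA on both strands, was in 15 of 20 G2/M members and in 1 of 16 S members, Mcm2, against 18.1% of 27025 promoters of the same length. An E2F site, searched on both strands as TTTCCCGC, TTTCGCGC, TTTGCCGC or TTTGGCGC, was in 7 of 16 S members and in 1 of 20 G2/M members, Cdk1, against 2.32% of all. CCAAT, searched on both strands, was in 18 of 20 G2/M members, 10 of 16 S members and 37.9% of all. These are letter matches and not measured binding sites. Birc5 and Nusap1 among the G2/M members and Tyms, Tk1, Dut and Ccne1 among the S members held none of the 3 elements in this window.

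For 3 G2/M and 3 S members whose levels are described below, the 250 bases before the start are shown because they display this split. Capitals mark every match to the 3 elements in either orientation, and overlapping matches run together. The regions on the strand of the gene are chr10:69352913-69353162 (minus) for Cdk1, chr11:99024190-99024439 (minus) for Top2a, chr2:164769679-164769928 (plus) for Ube2c, chr8:75109259-75109508 (plus) for Mcm5, chr1:128359706-128359955 (minus) for Mcm6 and chr11:98907901-98908150 (plus) for Cdc6.
Cdk1: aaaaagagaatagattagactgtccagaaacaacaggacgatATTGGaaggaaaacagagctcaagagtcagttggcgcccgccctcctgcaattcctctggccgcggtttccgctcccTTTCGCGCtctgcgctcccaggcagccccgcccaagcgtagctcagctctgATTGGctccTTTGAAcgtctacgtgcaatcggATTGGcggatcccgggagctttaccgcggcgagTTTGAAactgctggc
Top2a: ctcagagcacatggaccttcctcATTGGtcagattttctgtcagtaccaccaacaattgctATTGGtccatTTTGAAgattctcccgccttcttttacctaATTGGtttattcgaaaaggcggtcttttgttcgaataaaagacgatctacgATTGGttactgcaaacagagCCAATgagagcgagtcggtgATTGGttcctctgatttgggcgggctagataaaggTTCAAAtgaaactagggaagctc
Ube2c: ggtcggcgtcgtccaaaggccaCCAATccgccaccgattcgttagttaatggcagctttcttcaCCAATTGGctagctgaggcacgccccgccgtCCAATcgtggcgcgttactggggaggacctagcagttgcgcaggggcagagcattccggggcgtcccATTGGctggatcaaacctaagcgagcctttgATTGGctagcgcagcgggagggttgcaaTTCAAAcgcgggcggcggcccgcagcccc
Mcm5: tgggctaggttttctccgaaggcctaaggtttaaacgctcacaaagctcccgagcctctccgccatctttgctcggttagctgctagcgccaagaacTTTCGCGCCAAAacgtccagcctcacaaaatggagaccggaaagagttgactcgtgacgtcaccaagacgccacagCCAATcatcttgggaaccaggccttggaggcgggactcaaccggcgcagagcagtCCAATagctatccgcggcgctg
Mcm6: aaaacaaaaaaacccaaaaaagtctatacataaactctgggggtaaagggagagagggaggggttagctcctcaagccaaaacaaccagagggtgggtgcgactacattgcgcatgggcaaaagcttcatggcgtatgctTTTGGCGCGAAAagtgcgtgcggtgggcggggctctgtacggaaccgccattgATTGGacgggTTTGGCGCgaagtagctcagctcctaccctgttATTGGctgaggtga
Cdc6: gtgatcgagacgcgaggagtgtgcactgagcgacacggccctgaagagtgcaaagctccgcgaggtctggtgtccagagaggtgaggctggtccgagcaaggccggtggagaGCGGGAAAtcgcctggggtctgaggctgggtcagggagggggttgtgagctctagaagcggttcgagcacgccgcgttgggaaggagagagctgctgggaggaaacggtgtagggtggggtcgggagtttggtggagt
The printed Top2a stretch held 2 CHR and 6 CCAAT matches and no E2F match. The printed Mcm6 stretch held 3 E2F and 2 CCAAT matches and no CHR match. Cdk1, the kinase that starts mitosis, held all 3 kinds. The Cdc6 stretch lies before the RefSeq start but after the gene start in the GENCODE M21 annotation (chr11:98907801). Its E2F match is therefore before the start only by the RefSeq annotation. The last bases of the Cdk1 and Ube2c stretches also lie after the GENCODE M21 gene starts (chr10:69352938 and chr2:164769898). The CHR match of Ube2c and the last CHR match of Cdk1 fall there.

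The 4 matrices held 32801 cell barcodes, of which 30279 were kept. Total UMIs, unique molecular identifiers that count captured transcripts, were between 64141857 and 79747752 per library. The library labelled cKO replicate 2 stood apart by Xist, at 290 CPM (UMIs scaled to a common library total) against at most 1.01 CPM in the others, and by the Y-linked Ddx3y, with 11 UMIs against 2886 to 3429, so sex markers differ within the cKO group. WT replicate 1 and cKO replicate 2 shared 479 barcodes, against 85 to 104 for every other pair, and 392 of the 471 left after filtering (83.2%) differed more than 8-fold in UMIs between the copies. Ufl1 in T-like cells was 15.5 and 16.9 CPM in WT and 14.9 and 19.5 CPM in cKO (edgeR quasi-likelihood log2 fold change 0.02 ± 0.20 SE, Benjamini-Hochberg adjusted p = 1.00). A 3′ tag can lie outside the deleted part, so this checks nothing, and the genotype is used here as labelled.

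Cells were gated on UMIs of marker genes that hold no member, and each class is called by its markers, such as T-like (Cd3 and T cell receptor genes), NK-like (Ncr1, Klrb1c, Eomes), macrophage-like (C1q genes, Apoe, Mrc1) or monocyte-like (Ly6c2, Ccr2, Plac8). Ptprc, which encodes CD45, was found at 203 to 976 CPM in the 14 classes described, and 8 tumour or stroma markers summed to 1.3 to 36.7 CPM. The gates left 19.4% to 22.3% of each library's cells unassigned. A cell counted as cycling when, thinned to 3000 UMIs, it held at least 3 UMIs of G2/M members or at least 5 of S members. Of 25300 cells deep enough, 3657 (14.5%) met this call, and 1325 (5.24%) lay just below it. Macrophage-like cells made up 35.1% of the cycling cells, T-like cells 27.1%, unassigned (ungated) cells 16.1% and NK-like cells 15.8%. The cycling share of ungated cells was 11.8% to 15.4% over the libraries. Shares and phase balance are sums over the members and carry no test.

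Cycling shares were high in CD8 T-like, macrophage-like and cDC1-like cells. In CD8 T-like cells the share was 28.5% and 36.6% in the WT libraries and 30.3% and 36.7% in the cKO libraries. In macrophage-like cells it was 24.4%, 35.4%, 29.3% and 27.1%, in the same order of libraries. In cDC1-like cells, the dendritic cells that cross-present antigen, it was 25.6%, 30.1%, 27.5% and 25.8%. These 3 classes overlapped one another over the libraries. Conventional CD4 T-like cells followed at 24.3%, 22.9%, 21.1% and 19.6%, and regulatory (Treg-like) cells, with 53 cycling cells in all, at 20%, 15.6%, 19% and 18.5%. NK-like cells had 17.7%, 24.2%, 14.9% and 16.4%.

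A pair of classes lay in between. Gamma-delta T-like cells ran from 4.26% to 16.7%, reaching into the NK-like and Treg-like ranges, and migratory DC-like cells from 0% to 6.56%. The remaining classes did not exceed 2.97% in any library. Monocyte-like cells, at 0.67% to 1.75%, differed from macrophage-like cells in every library, and cDC2-like cells, at 0.99% to 2.31%, from cDC1-like cells. B-like cells were at 1.27% to 2.97% and non-classical monocyte-like cells at 0.79% to 1.55%. No pDC-like cell of 310 met the call, and with so few cells per library a count of 0 allows shares of up to 3.33% to 5.17%. The cycling call read all of these cells at the same 3000 UMIs. The gates used all UMIs of a cell, with minimum or zero counts of some markers, so class membership could depend on depth. The part of free RNA in the calls was not tested.

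**Figure D1:**
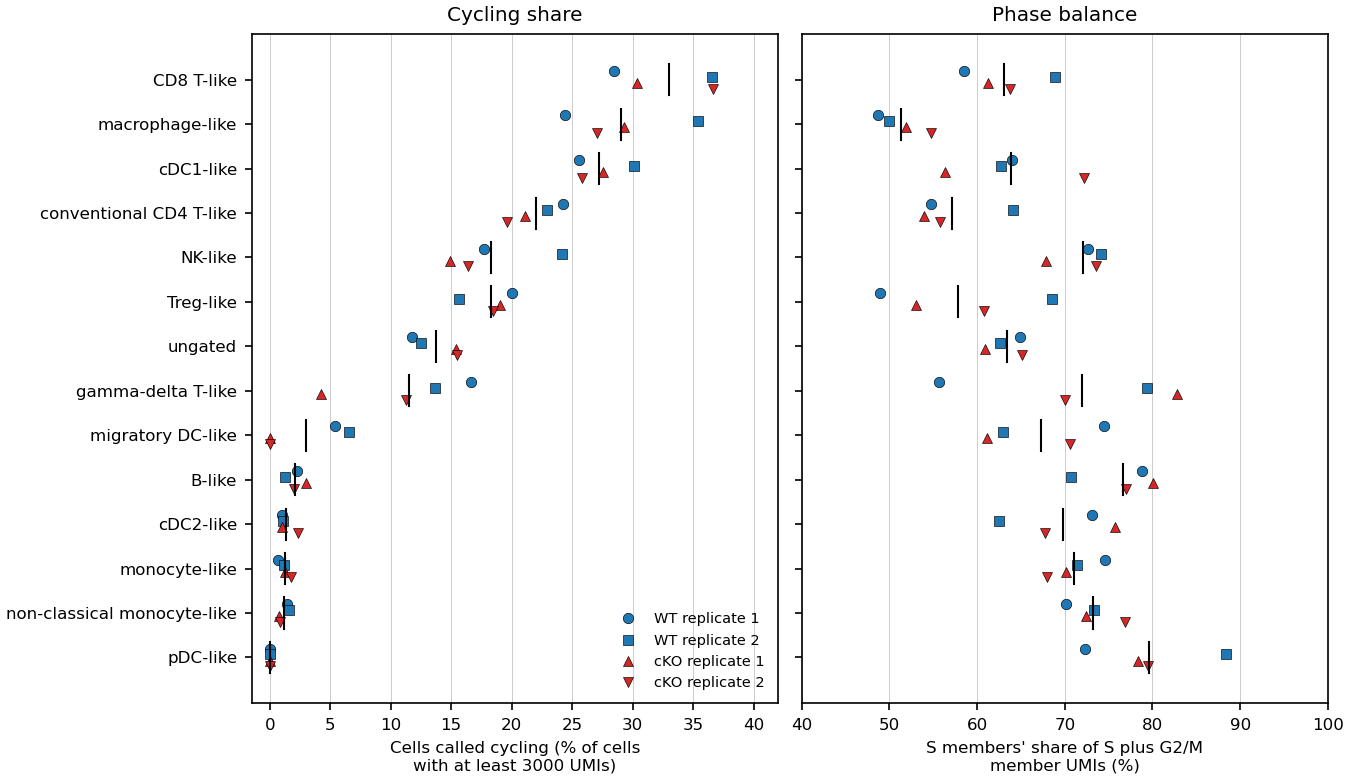
Left, cells that met the cycling call as a percent of cells with at least 3000 UMIs (x axis) in each gated class (y axis); right, S members as a percent of S plus G2/M UMIs, on an axis that starts at 40%. Symbols are single libraries (blue WT, red cKO) and black bars the means of 4; CD8 T-like, macrophage-like and cDC1-like cells lie at 24.4% to 36.7%, monocyte-like and pDC-like cells below 2%, and macrophage-like cells have the lowest mean S share, 51.3%.

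Summed counts per class placed most members highest in T cells. Over 13 classes, 26 of the 43 members had their highest mean level in CD8 T-like cells, 16 of them S members, and 11 in Treg-like cells, 9 of them G2/M members. Macrophage-like cells were highest for Aurka, Ccnb1, Plk1 and Ube2c, all mitotic. In sums over a class, fewer cycling cells and less RNA per cycling cell cannot be told apart. The members' summed level was 3430 and 3280 CPM in WT and 3219 and 3332 CPM in cKO for CD8 T-like cells. For macrophage-like cells it was 1236, 1916, 1473 and 1302 CPM, and for monocyte-like cells 246 to 264 CPM.

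Among the replication members, Mcm5, a subunit of the replicative helicase, reached 101 and 107 CPM in CD8 T-like cells of WT tumours, and 102 and 106 CPM in those of cKO tumours. The next classes were Treg-like (80.3 ± 25 CPM, SD, n = 4) and NK-like cells (73.4 ± 9.4 CPM). NK-like cells lay below every CD8 T-like library, while Treg-like cells overlapped them. Cdc6, which licenses origins, was 16.2 and 25.1 CPM in WT and 26.3 and 21.1 CPM in cKO CD8 T-like cells, above every macrophage-like library (4.45 to 6.44 CPM). Conventional CD4 T-like cells, at 9.10 to 21.8 CPM, overlapped them. Pclaf, a clamp-associated factor, was 185 ± 27.5 CPM in CD8 T-like, 158 ± 12 in cDC1-like and 151 ± 46 in Treg-like cells, which overlapped. In NK-like cells it was 82.7 ± 20 CPM and in monocyte-like cells 3.42 ± 0.26 CPM.

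The nucleotide enzymes had the same leaders. Rrm2, the regulated subunit of ribonucleotide reductase, was 109 ± 4.1 CPM in CD8 T-like, 101 ± 26 in Treg-like and 25.2 ± 5.9 in macrophage-like cells (SD, n = 4 each). Tyms, thymidylate synthase, was 93 ± 15 CPM in Treg-like and 90.3 ± 7.8 CPM in CD8 T-like cells. Conventional CD4 T-like cells, at 61.2 ± 7.5 CPM, lay below every CD8 T-like library and overlapped the lowest Treg-like library. Ccne2, a cyclin of the G1 to S step, was 12.9 ± 2.5 CPM in CD8 T-like and 2.25 ± 1.0 in macrophage-like cells.

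A pair of members broke the order. Cdt1, which loads the helicase, was highest in B-like cells, at 107.5 and 94.6 CPM in WT and 94.1 and 59.7 CPM in cKO libraries. All 4 lay above every library of the other classes, the next being CD8 T-like cells at 49.8 ± 5.3 CPM. The cycling share of B-like cells was only 1.27% to 2.97%, and their Mki67 was at 4.18 to 14.3 CPM. B-like cells had the highest mean of no other member and the lowest mean of 2 members. Pcna, the sliding clamp, which also serves DNA repair, was 52.4 to 171 CPM as a class mean in all 13 classes and did not separate cycling classes from the rest as the other members did.

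Among the mitotic members, Mki67, which coats mitotic chromosomes, stood at 156 and 92.2 CPM in CD8 T-like cells of WT tumours, and at 142 and 123 CPM in those of cKO tumours. Treg-like cells ranged more widely, from 74.9 to 285 CPM, the top value coming from WT replicate 1. NK-like cells were at 57.9 ± 3.1 CPM and macrophage-like cells at 23.7 ± 4.1 CPM, below every NK-like and cDC1-like library. Top2a, the topoisomerase that untangles sister chromatids, gave 152 ± 21 CPM in CD8 T-like and 40.4 ± 6.5 CPM in macrophage-like cells.

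Ccnb1 ran the other way. This gene of cyclin B1 was 17.6 and 30.4 CPM in WT and 18.2 and 17 CPM in cKO macrophage-like cells, against 14.4, 6.52, 12.7 and 12.7 CPM in CD8 T-like cells. Every macrophage-like library was above every CD8 T-like library. Ccnb2, cyclin B2, was instead highest in CD8 T-like cells (57.1 ± 6.6 CPM, against 31.4 ± 8.0 in macrophage-like cells). Ube2c, which feeds the anaphase-promoting complex, was 97.0 ± 27 CPM in macrophage-like and 87.1 ± 24 CPM in CD8 T-like cells, which overlapped. Cdk1 was 40.1 ± 15 and 41.7 ± 6.3 CPM in these classes. Birc5, survivin of the chromosomal passenger complex, was 75.9 ± 23 CPM and 90.4 ± 17 CPM, also overlapping, while Cenpf, a kinetochore protein, was 10.5 ± 3.8 and 33.7 ± 6.8 CPM. Stmn1, the microtubule destabiliser in neither list, was 349 ± 21 CPM in CD8 T-like cells and lay above every library of the other classes.

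**Figure D2:**
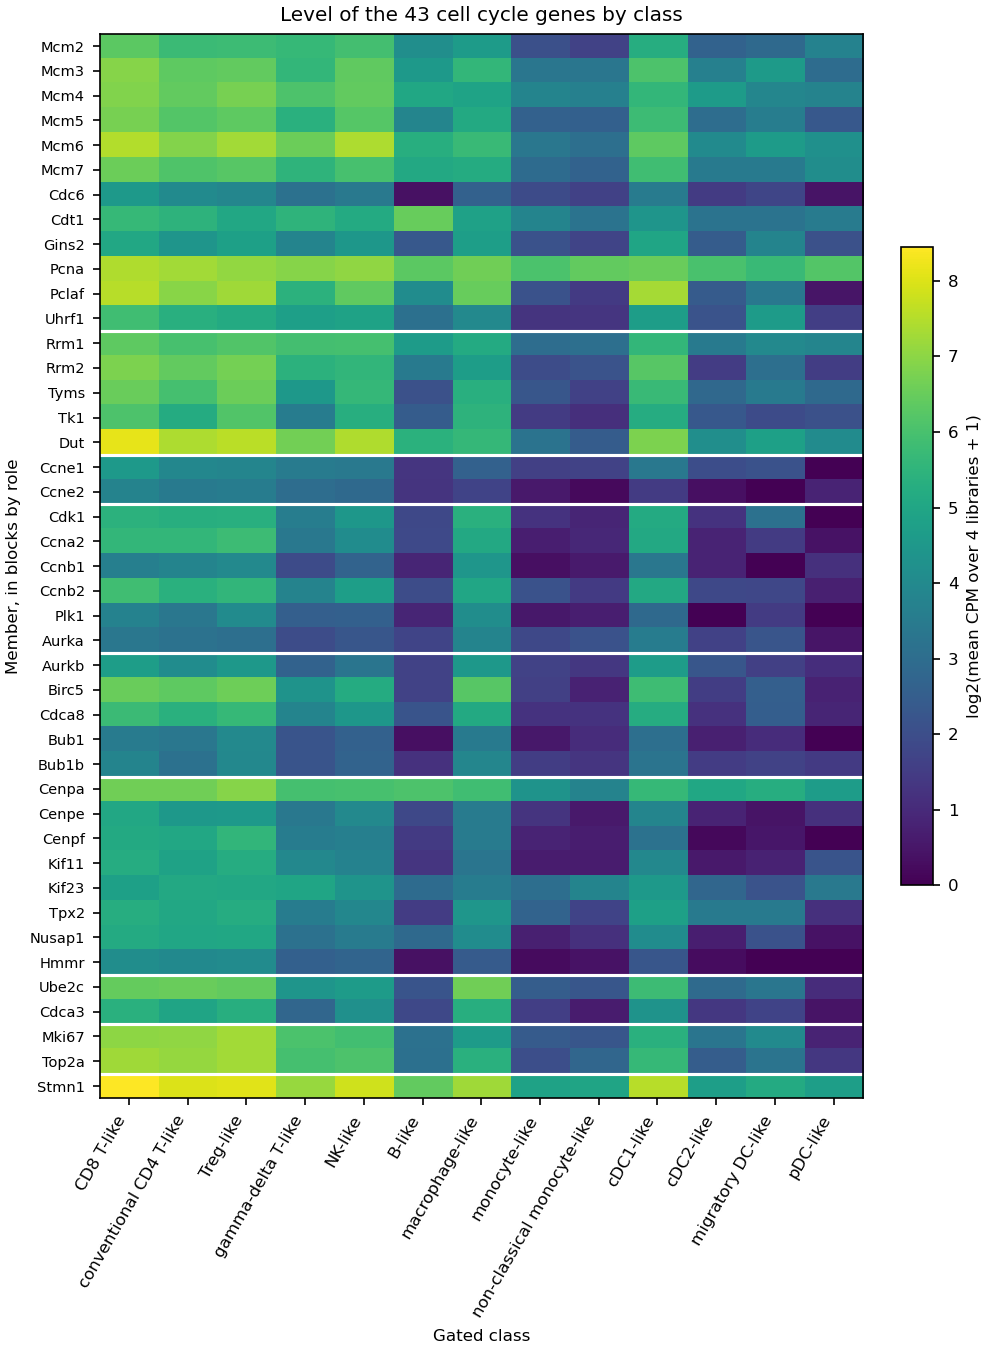
Mean level of each of the 43 members (rows, in blocks by role) in each of 13 gated classes (columns); colour is log2 of the mean CPM over 4 libraries plus 1. CD8 T-like cells have the highest mean of 26 members, macrophage-like cells that of Aurka, Ccnb1, Plk1 and Ube2c, and B-like cells that of Cdt1.

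Phase balance differed between macrophage-like cells and both CD8 T-like and NK-like cells. S members gave 51.3% of the S plus G2/M UMIs in macrophage-like cells (48.6% to 54.7% over libraries), against 63.1% in CD8 T-like cells (58.5% to 68.9%) and 72.0% in NK-like cells (67.9% to 74.1%). With Pcna, Dut and the 6 Mcm genes left out, the 3 values fell to 32.6%, 40.1% and 44.9%, so the order of the 3 classes held while the level depended on these genes. Not all T cells differed: conventional CD4 T-like (53.9% to 64.1%) and Treg-like cells (49.0% to 68.6%) overlapped the macrophage-like range in the full list. The 2 cKO libraries of macrophage-like cells (51.9% and 54.7%) lay above both WT libraries (48.6% and 50%) in the full list. They also did in the reduced list (34.0% and 34.7% against 29.9% and 31.7%). Monocyte-like cells went the other way in the full list (70.1% and 68.0% in cKO against 74.6% and 71.4% in WT), and the other classes overlapped. Groups did not overlap for 27.6% of all genes tested in macrophage-like and 34.3% in monocyte-like cells. Among cells that met the call, 39.2% to 51.5% of macrophage-like ones did so by G2/M members alone, against 7.02% to 16.4% of CD8 T-like and 13% to 22.8% of NK-like ones. The share by S members alone was 18.3% to 26.9% in macrophage-like and 44.3% to 53.7% in CD8 T-like cells.

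Inside the cycling cells the same contrast appeared gene by gene. These levels are a description, because the members chose the cells. Over 4 libraries each, cycling macrophage-like cells lay above cycling CD8 T-like cells without overlap for 12 members, 10 of them G2/M, and below for 19, 13 of them S. Ube2c averaged 403 CPM in cycling macrophage-like, 158 in CD8 T-like and 57.0 in NK-like cells. Ccnb1 averaged 89.3, 16.9 and 10.6 CPM, and Aurka, the centrosome kinase, 45.1, 11.1 and 6.84 CPM. Mcm6 ran the other way, with 136, 300 and 353 CPM, and so did the dUTPase Dut with 147, 483 and 340 CPM. Mki67, although a G2/M member, was also lower, at 77.7, 289 and 193 CPM.

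**Figure D3:**
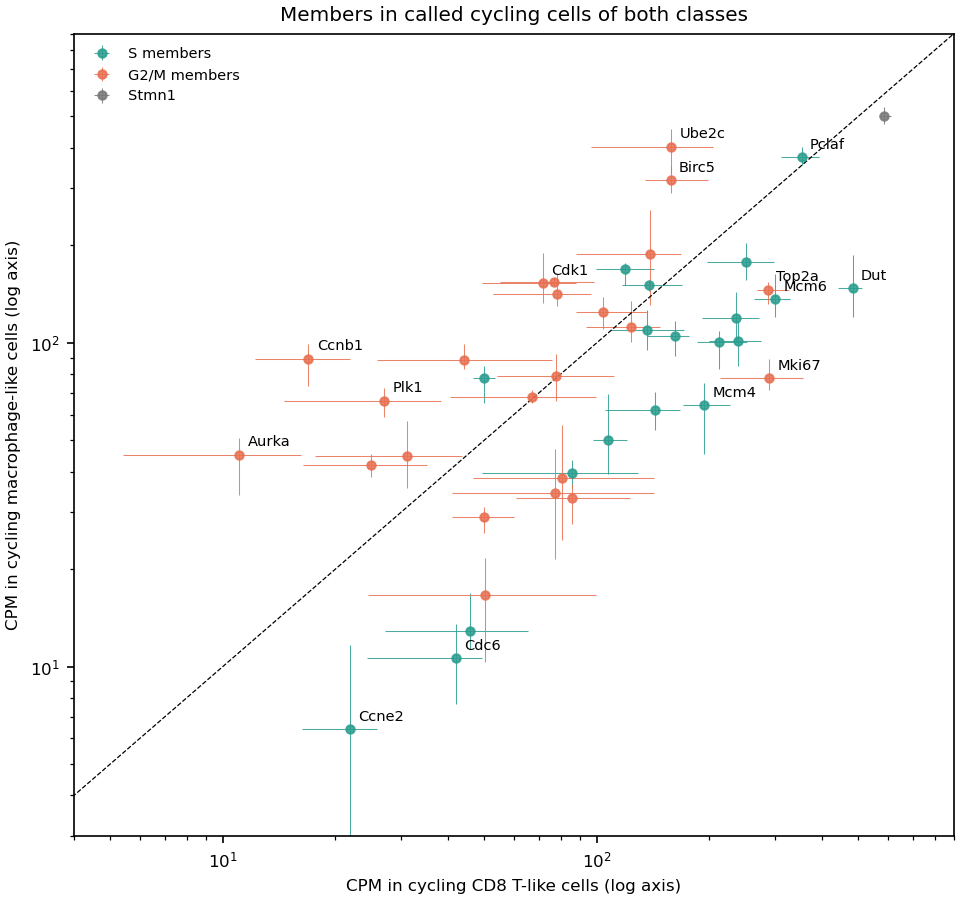
Level of each member in cycling CD8 T-like cells (x axis) and cycling macrophage-like cells (y axis), in CPM of cells thinned to 3000 UMIs, both on log axes; points are means of 4 libraries, bars span the lowest to the highest library, and the dashed line marks equal levels. Ube2c, Ccnb1 and Aurka lie above the line and Mcm6, Dut and Mki67 below it; the lower bar of Ccne2 runs off the axis because 1 macrophage-like library was at 0.

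Depth ran in opposite directions in these cells. Before thinning, cycling CD8 T-like cells had 1.56 to 1.96 times the median UMIs of other CD8 T-like cells, and cycling NK-like cells 2.03 to 2.63 times. Cycling macrophage-like cells had 0.56 to 0.79 times those of the others. The part of this in the differences above was not tested. Cycling macrophage-like cells held tumour or stroma markers at 1.88 to 3.94 CPM and T markers at 13.8 to 43.3 CPM, against 0.64 to 3.51 and 11.8 to 42.8 CPM in other macrophage-like cells.

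Class against class, with the library as block, the module differed most between the myeloid pairs. All 43 members were higher in macrophage-like than in monocyte-like cells by the edgeR quasi-likelihood test at a Benjamini-Hochberg adjusted p under 0.05, where 32.4% of 11111 genes were called higher and 32.5% lower. The median log2 fold change was 2.86, with 2.46 for S and 3.94 for G2/M members. Cdk1 was 28.4, 63.1, 36.6 and 30.4 normalised CPM in macrophage-like and 2.02, 1.17, 1.37 and 1.06 in monocyte-like cells (WT 1, WT 2, cKO 1, cKO 2). The groups did not overlap, and the log2 difference was 4.81 ± 0.21 (SE). Of 40 other mitotic genes 38 were higher, and of 42 other replication genes 39 were higher.

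cDC1-like against cDC2-like cells gave a similar picture. All 34 members that passed the low-count filter were called higher by the same test, against 20.1% of 7952 genes higher and 21.6% lower, with a median of 2.83. Pclaf was 151, 149, 176 and 168 normalised CPM in cDC1-like and 2.20, 6.61, 4.99 and 3.88 in cDC2-like cells (log2 difference 5.25 ± 0.18). The filter passes members through the class in which they are high, so their count is no independent support.

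CD8 T-like cells exceeded NK-like cells in 42 of 43 members, where 18.1% of 10283 genes were called higher and 17.1% lower. The exception was Mcm6, at 171, 203, 157 and 176 against 167, 204, 160 and 165 normalised CPM (log2 difference 0.02 ± 0.06, adjusted p = 0.787 by edgeR with Benjamini-Hochberg adjustment). The median difference was 0.63 for S and 1.24 for G2/M members. Ube2c was 113, 62.1, 74.2 and 94.7 against 20.7, 28.8, 31.6 and 15.3 normalised CPM, without overlap.

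Within NK-like cells the module went with Gzmc, a granzyme of strongly activated killer cells. The cycling share was 30.5%, 31.1%, 27.9% and 30.1% in cells with a Gzmc UMI after thinning and 8.5%, 19.3%, 8.6% and 11.7% in cells without. The sets did not overlap. In summed counts 34 of 43 members were higher in the Gzmc set and none lower by edgeR at the same threshold, against 19.1% of 9560 genes higher and 20.2% lower, with a median of 0.74; DESeq2 called 23. Tyms was 76.1, 67.5, 52.3 and 55.7 against 27.4, 49.6, 28.2 and 34.5 normalised CPM (log2 difference 0.93 ± 0.12), without overlap.

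Among CD8 T-like cells, those with Pdcd1 and with Lag3 or Havcr2, the receptors of chronic stimulation, were compared with those lacking Pdcd1. Cycling shares overlapped, at 21.7%, 34.1%, 34.8% and 33.6% against 28.4%, 38.6%, 25.0% and 33.8%. The set with Pdcd1 held 23 and 220 cells in WT replicates 1 and 2, and 46 and 131 in cKO replicates 1 and 2. The 21.7% thus stands for 5 of 23 cells. The members split: 10 were lower, all of them S members, and 1 was higher, where 7.29% of 8201 genes were called lower and 7.27% higher. Pcna was 144, 126, 132 and 128 against 183, 232, 189 and 183 normalised CPM (log2 difference −0.61 ± 0.11, edgeR adjusted p = 0.00313 with Benjamini-Hochberg adjustment). Cenpa, the centromere histone, was higher at 220, 113, 137 and 140 against 75.2, 74.2, 95.3 and 55.8 (log2 difference 0.97 ± 0.16, edgeR adjusted p = 0.00208). Neither gene's groups overlapped. Of the other replication genes 17 of 42 were lower and none higher. The count of lower members depended on single libraries: it was 22 without WT replicate 1, 1 without WT replicate 2 and 2 without cKO replicate 2. DESeq2 called 5.

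Treg-like against conventional CD4 T-like cells gave 2 higher members of 38 tested, and none lower, where 9.64% of 7083 genes were called higher and 9.15% lower. Tk1, thymidine kinase, was 104, 73.6, 40.7 and 63.0 against 48.3, 32.3, 30.9 and 38.1 normalised CPM (log2 difference 0.87 ± 0.18, edgeR adjusted p = 0.00275 with Benjamini-Hochberg adjustment), and its groups overlapped. Tyms differed by 0.52 ± 0.14 (edgeR adjusted p = 0.0187). DESeq2 called neither, and 1 remained called without WT replicate 2 or without cKO replicate 2.

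Genes outside the module were compared between cycling and other cells of a class, in cells thinned to 3000 UMIs and with the library as block. Of the 6 classes chosen for it, CD8 T-like, NK-like and macrophage-like cells could be fitted. Treg-like, monocyte-like and cDC1-like cells had libraries with under 20 cycling cells. Conventional CD4 T-like cells were not among the chosen classes and were not fitted. Levels in these fits are shares of a cell's UMIs, because all cells were thinned to the same depth. Before thinning, cycling CD8 T-like and NK-like cells were deeper than the others and cycling macrophage-like cells shallower, as given above. Differences in amount per cell were not tested. By edgeR with Benjamini-Hochberg adjustment, 22.7% of 5787 genes outside the members were called in CD8 T-like (694 higher and 619 lower), 26.9% of 7030 in NK-like (988 and 905) and 45.8% of 7951 in macrophage-like cells (1750 and 1891). Other cell cycle lists moved with the members: 32 of 33 other replication genes were higher in CD8 T-like, 34 of 36 in NK-like and 36 of 36 in macrophage-like cells. The replication-dependent histone gene H2ac8 was higher by 3.74 ± 0.18, 3.04 ± 0.15 and 3.73 ± 0.12 on the log2 scale in the 3 classes. Genes of near-identical histone copies share reads, so its own level is uncertain.

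Cycling CD8 T-like cells held less of the naive and memory genes per UMI. Of 10 tested, 9 were lower, among them Tcf7, the factor of stem-like T cells (31.8 to 69.4 against 94.3 to 176 normalised CPM, log2 difference −1.36 ± 0.17), and the lymph node homing receptor Ccr7 (−1.49 ± 0.20). Of 13 cytotoxic genes 8 were lower and none higher, led in size by Gzmf (−1.47) and the chemokine Ccl5 (−1.33 ± 0.08). Of 11 inhibitory receptor and exhaustion genes 3 were lower, Tigit, Lag3 and Ctla4. Btg1, an antiproliferative factor, was lower (−0.99 ± 0.08), and Fbxo5, the inhibitor of the anaphase-promoting complex, was higher, at 52.4 to 85.5 against 0 to 2.98 normalised CPM.

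Cycling NK-like cells had more Gzmc per UMI, at 4621 to 7343 against 1392 to 3118 normalised CPM (log2 difference 1.34 ± 0.10). Ccl5 (−2.11 ± 0.08), Ccl4 (−1.62 ± 0.12) and Gzma (−1.20 ± 0.07) were lower, and 9 of 13 cytotoxic genes were lower in all. Glycolysis genes were higher in 7 of 9. The tubulins Tuba1c and Tubb4b were lower, while 13 of 15 chromatin and tubulin genes were higher.

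Cycling macrophage-like cells held less of the monocyte genes per UMI. All 9 were lower, led in abundance by Ly6c2 (88.6 to 212 against 1259 to 2963 normalised CPM, log2 difference −3.75 ± 0.10) and Ccr2, the receptor that draws monocytes into tissue (−1.71 ± 0.10). All 10 type I interferon genes and all 7 MHC class II genes were lower, for example Isg15 (−0.97 ± 0.08) and Cd74 (−0.39 ± 0.08). Of 14 macrophage genes, the complement genes C1qa, C1qb and C1qc were higher by 0.37, 0.28 and 0.43, and 5 were lower, including Arg1, arginase 1 (−1.31 ± 0.20). Foxm1, the driver of the G2/M wave, was higher, at 9.0 to 31.5 against 0 to 1.12 normalised CPM, and the CDK inhibitor Cdkn1a was lower (−1.57 ± 0.10). The immediate early genes Zfp36 (−2.55 ± 0.09) and Fos (−2.77 ± 0.09) were also lower. Summed macrophage markers were 21250 to 23190 CPM in cycling and 17636 to 21497 CPM in other macrophage-like cells, whose ranges overlapped.

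**Figure D4:**
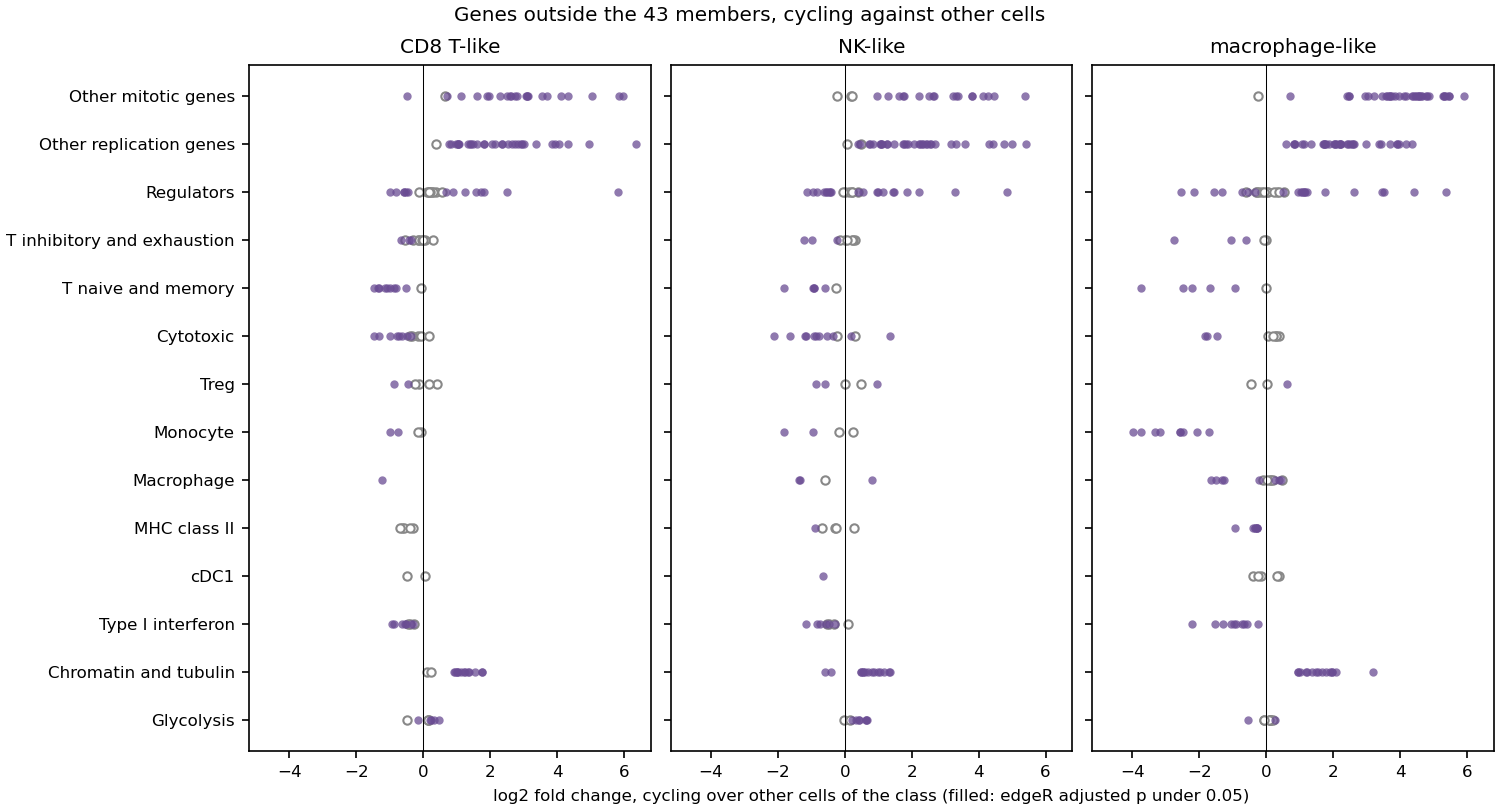
Log2 fold change of single genes outside the members (points) in cycling over other cells, by list (rows) and class (panels); filled points passed an edgeR adjusted p under 0.05. In macrophage-like cells all 9 monocyte, 10 type I interferon and 7 MHC class II genes lie left of 0, and in CD8 T-like cells 9 of 10 naive and memory genes are filled to the left.

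Between cKO and WT no member was called in any of 14 classes. This was the result of the edgeR quasi-likelihood test with Benjamini-Hochberg adjustment, and DESeq2 also called none. The same edgeR test called 0.0812% of 11083 genes in T-like cells, 0.0519% of 7711 in conventional CD4 T-like, 0.0186% of 5371 in migratory DC-like, 0.0156% of 6400 in pDC-like and 0.0122% of 8223 in non-classical monocyte-like cells, and 0.0% in the other 9 classes. Unadjusted p-values under 0.05 were found for 6 of 43 members in NK-like cells, where 375 of 10494 genes had one, and for 6 of 20 in gamma-delta T-like cells (158 of 5986 genes). They were found for 2 of 40 in conventional CD4 T-like (292 of 7711), 2 of 38 in monocyte-like (652 of 11094) and 2 of 8 in migratory DC-like cells (268 of 5371). There was 1 such member of 43 in CD8 T-like (208 of 10025) and 1 of 36 in Treg-like cells (214 of 6572), and 0 in the other 7 classes. With 2 libraries a group the test had limited reach. On counts simulated for CD8 T-like cells (10025 genes) it recovered 10.5% of 2-fold and 84% of 4-fold changes, with 16% and 10.2% of its calls false. For macrophage-like cells (10908 genes) it recovered 62% and 90.5%, with 12.1% and 7.65% of its calls false. Each of these false shares was above the adjusted threshold of 0.05.

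In T-like cells, where the series places the loss, 29 of 43 members were lower in cKO and 14 higher, with a median log2 difference of −0.08 against 0.01 over all genes. The S members lay lower in 18 of 19 (median −0.12) and the G2/M members in 10 of 23 (median 0.03). The median of all members turned to 0.03 without cKO replicate 1 and to 0.04 with the barcodes shared by 2 libraries left out. Pclaf was 147 and 183 normalised CPM in WT and 112 and 150 in cKO (−0.33 ± 0.18), with overlapping groups. Plk1, the polo kinase, was 10.2 and 8.25 against 12.6 and 12.1 (0.44 ± 0.21), without overlap, as for 29.5% of all genes tested in this class and 8 of 43 members. The only list genes called in T-like cells were MHC class II genes, 4 of 7 higher in cKO, with H2-Ab1 at 2.03 ± 0.17 (edgeR adjusted p = 0.0255 with Benjamini-Hochberg adjustment). Genes of no list were called higher beside them, among them Ifi205 (2.53 ± 0.25), Cfp (2.52 ± 0.26) and Plbd1 (1.92 ± 0.20). These calls ended, with 0 genes called in the class, when doublets were kept, with the stricter gate, with gates set in the thinned cell and with the shared barcodes left out. With doublets kept H2-Ab1 was at 0.41. Macrophage markers summed to 55.2 and 59.6 CPM in WT and 99.8 and 43.6 CPM in cKO T-like cells. The T-like gate caps the C1q genes among these markers, so the sum cannot show how much myeloid RNA was carried over. The part of such RNA in the result was not tested.

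In CD8 T-like cells 31 of 43 members lay lower in cKO (median −0.08). This direction turned with the shared barcodes left out and with gates set in the thinned cell, each giving a median of 0.02 with 24 members higher, and the median was −0.05 without WT replicate 1 or without WT replicate 2. Of the members 13 of 43 had groups that did not overlap, against 29.9% of 10025 genes. Pclaf was 192 and 232 normalised CPM in WT and 155 and 165 in cKO (−0.41 ± 0.16, unadjusted p = 0.035 in edgeR, Benjamini-Hochberg adjusted p = 0.999). Ccna2, cyclin A2, was 56.2 and 51.4 against 44.8 and 40.2 (−0.34 ± 0.17). In conventional CD4 T-like cells Mcm6 was 133 and 139 against 99.9 and 100.04 (−0.45 ± 0.17), and 11 of 40 members did not overlap, against 31.2% of 7711 genes. In Treg-like cells Tk1 was 107 and 76.6 against 42.1 and 65.7 (−0.73 ± 0.31), and 7 of 36 members did not overlap, against 30% of 6572 genes. These differences did not pass the adjusted threshold.

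In NK-like cells 34 of 43 members lay lower in cKO. All 19 S members lay lower in cKO (median −0.25), as did 40 of 43 other replication genes (median −0.18), while 14 of 23 G2/M members did (median −0.06). Tyms was 52.3 and 58.9 normalised CPM in WT and 39.2 and 42.3 in cKO (−0.45 ± 0.14, unadjusted p = 0.0071 in edgeR, Benjamini-Hochberg adjusted p = 0.998). Gins2, a replisome subunit, was 23 and 27.7 against 18.3 and 15.7 (−0.54 ± 0.17). Groups did not overlap for 17 of 43 members, against 32.2% of 10494 genes. The median of all members, −0.21, was −0.06 without WT replicate 2, −0.33 without WT replicate 1 and −0.13 with the shared barcodes left out. The cycling share of NK-like cells was lower in both cKO libraries, by 5.26 percentage points between the means of 20.9 ± 4.6% and 15.7 ± 1.1% (SD, n = 2 each). As cKO minus WT, this difference was −2.01 without WT replicate 2 and −8.50 without WT replicate 1. It was −1.81 among cells with a Gzmc UMI after thinning and −3.75 among those without. The groups overlapped in the set without. Cells with a Gzmc UMI were 499 of 1194 and 196 of 476 in WT, and 355 of 1088 and 143 of 554 in cKO. The part of this make-up in the difference was not tested.

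In macrophage-like cells 39 of 43 members lay lower in cKO, with a median of −0.18 and −0.33 for the G2/M members, and this rested on WT replicate 2. Without that library the median was 0.17 and 35 of 43 were higher, and it was −0.49 without WT replicate 1. Leaving out cKO replicate 1 gave −0.29, and leaving out cKO replicate 2 gave −0.10. Cenpf was 9.17 and 16.6 normalised CPM in WT and 9.40 and 7.07 in cKO (−0.67 ± 0.30), with overlapping groups. Only 2 of 43 members had groups that did not overlap, against 27.6% of 10908 genes. In cDC1-like cells 26 of 38 members lay higher in cKO (median 0.11), and the median was −0.09 without cKO replicate 1 and −0.06 with gates set in the thinned cell. It was 0.26 without cKO replicate 2, 0.17 without WT replicate 2, 0.25 with the shared barcodes left out and 0.23 with the stricter gate. There 8 of 38 members did not overlap, against 31.6% of all genes tested in that class.

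**Figure D5:**
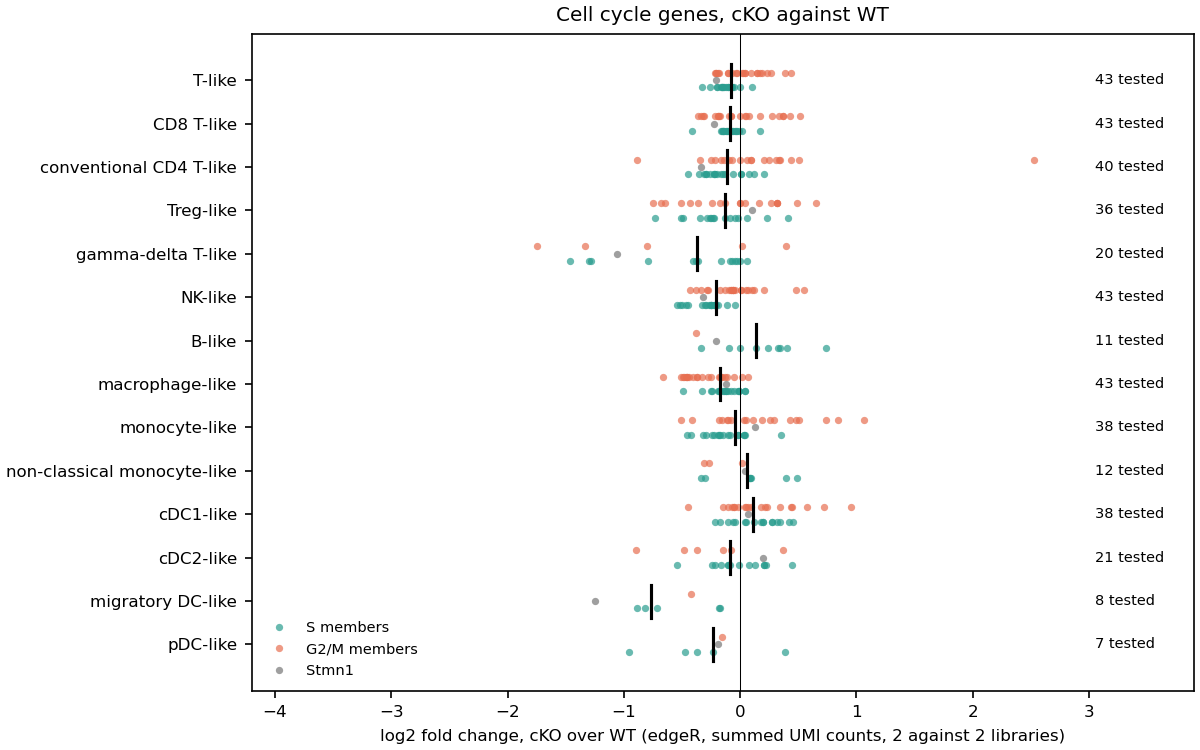
Log2 fold change of cKO over WT (x axis) in each gated class (y axis); points are members that passed the low-count filter (their number at the right), coloured by phase list, and black bars are medians. Medians lie between −0.37 and 0.13 except in migratory DC-like cells (−0.76, 8 members), and no member was called.

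The medians farthest from 0 were in gamma-delta T-like and migratory DC-like cells. In gamma-delta T-like cells 17 of 20 tested members lay lower in cKO (median −0.37). The median was 0.12 without WT replicate 1, with 11 members higher and 10 lower, and −1.38 without WT replicate 2. Leaving out cKO replicate 1 gave −0.75, and leaving out cKO replicate 2 gave −1.62. With the stricter gate it was −0.02 and with gates set in the thinned cell −0.01. The cycling share was 16.7% and 13.7% in WT and 4.26% (2 of 47 cells) and 11.3% in cKO. In migratory DC-like cells all 8 tested members lay lower (median −0.76). The median was −0.18 without WT replicate 1, with 2 members higher and 6 lower, −0.33 without cKO replicate 1, −0.38 with the stricter gate, −0.35 with gates set in the thinned cell, −0.41 with doublets kept and −0.41 with the shared barcodes left out. There 4 of 74 and 4 of 61 cells met the cycling call in WT and 0 of 54 and 0 of 62 in cKO, which allows shares of up to 5.56% and 4.84%. Pclaf in these cells was 19.4 and 18.8 CPM in WT and listed at 0 in both cKO libraries, so it passed the low-count filter through the WT libraries. In monocyte-like cells Birc5 was 1.64 and 1.40 normalised CPM in WT and 2.69 and 2.39 in cKO (0.74 ± 0.29), a difference between low levels.

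Members whose groups did not overlap were counted in these classes too. They were 7 of 20 in gamma-delta T-like cells, against 28.7% of all genes tested, 2 of 8 in migratory DC-like cells, against 31.8%, and 9 of 38 in monocyte-like cells, against 34.3%. In B-like cells they were 5 of 11, against 29.8%, and in non-classical monocyte-like cells 4 of 12, against 29.7%. In cDC2-like cells they were 5 of 21, against 31.1%, and in pDC-like cells 1 of 7, against 32.8%. These counts carry no test of their own.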

How the data were processed

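Droplet libraries were read as the 4 deposited matrices of UMI counts per gene and cell, made with Cell Ranger 6.1.1 per the file headers; CASAVA 1.8 and Seurat are also named in the submitters' processing notes. The genome build of the counting is not given in the sources used here. The members and all gene lists were chosen with earlier results of these data known.

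Barcodes with fewer than 300 genes or with over 15% mitochondrial UMIs were dropped. Scrublet (scanpy 1.11.5) called 0 doublets by its own threshold, so the highest scores were removed at 0.8% per 1000 cells, 2117 in all. Classes were gated on marker UMIs per 10000 of a cell at full depth, and 6 cells that met 2 gates joined no class. Gates also used minimum or zero counts of some markers that were not scaled to depth. T-like cells needed at least 2 Cd3 UMIs, and NK-like cells had to lack Cd3d and Cd3e UMIs. The T cell subsets were set by such counts of Cd8, Cd4 and Foxp3. For cycling calls, cells were thinned to 3000 UMIs (seed 1) and 4979 shallower cells left out.

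For each class the UMI counts of a library's cells were added up. The quasi-likelihood test of edgeR 4.0.16 (R 4.3.3), with TMM scaling and the filterByExpr low-count filter, was fitted on all genes, with Benjamini-Hochberg adjustment over all genes tested and a threshold of 0.05; normalised CPM are edgeR's. Comparisons within libraries took the library as block. A class needed at least 20 cells in every library. The fitting code was tested on data simulated for 4 of the comparisons. Named genes were the called members (up to 10 by smallest p), or the 3 with the smallest p where none was called, 1 or 2 members per role, up to 5 called genes per list and direction, and the 5 genes with the smallest p. Cdt1 and Pcna by level, the cycling-cell examples, Mcm6 and Ube2c in CD8 T-like against NK-like cells, Cdk1 in macrophage-like against monocyte-like cells and the MHC class II genes were chosen after their values were seen. DESeq2 1.42.0, other filters, gates, depths and calls, and leaving out each library were alternatives. Intervals and limits cover counting error only.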

Additional observations from a re-analysis of the deposited data

Results flagged for a closer look

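Among the 14 classes and the ungated cells, 7 had both cKO libraries on one side of both WT libraries in cycling share. The side was not the same in all of them. By the same rule, 27.6% to 34.3% of all genes tested in a class did not overlap between the groups. The difference between classes was not tested. The share was lower in cKO by the following differences of group means, in percentage points: −3.25 in conventional CD4 T-like, −7.40 in gamma-delta T-like, −5.26 in NK-like, −0.67 in non-classical monocyte-like and −5.98 in migratory DC-like cells. It was higher by 0.55 in monocyte-like and by 3.30 in ungated cells. The gamma-delta T-like, non-classical monocyte-like and migratory DC-like classes held 41, 12 and 8 cycling cells in all.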

How the results depend on the processing

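The limits are 2 libraries a group, rebuilt class names and 19.4% to 22.3% of cells in no gate. Of 2803 values of single named genes under an alternative, 2670 kept their direction and side of the threshold, 129 no longer passed it, 3 newly passed it and 1 reversed: Apoe in cycling CD8 T-like cells, at a log2 difference of 0.036 with doublets kept. The cause of the changes below was not tested.

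The numbers of members called between cKO and WT were 0 except as follows. With no low-count filter 1 was called in each of conventional CD4 T-like (among 62 of 13579 genes called), gamma-delta T-like (7 of 12579), monocyte-like (193 of 16850) and migratory DC-like cells (50 of 12669). The labels share replicate numbers but state no pairing, and same-numbered libraries correlated at −0.22 to 0.23 over 14 classes. With the replicate block 3 members, Stmn1, Mki67 and Pclaf, were called in gamma-delta T-like cells (11 of 5986 genes) and 1, Pclaf, in migratory DC-like cells (22 of 5371), and 0 in the other classes. Leaving out 1 library at a time gave 0 to 2 in conventional CD4 T-like (2 without WT replicate 1, among 62 of 8305 genes), 0 to 4 in Treg-like (4 without WT replicate 2, 98 of 7153), 0 to 3 in gamma-delta T-like (3 without cKO replicate 2, 47 of 6254) and 0 to 1 in migratory DC-like cells (1 without cKO replicate 2, 39 of 5760).

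Among class contrasts, CD8 T-like cells with Pdcd1 had 2 higher and 24 lower members with no low-count filter, 5 lower with DESeq2, and 1 to 22 lower when 1 library was left out. Treg-like cells had 0 higher members with DESeq2 and with gates set in the thinned cell, 1 higher and 1 lower with the shared barcodes left out, and 1 to 2 higher when 1 library was left out. Genes outside the members called higher and lower in cycling cells by DESeq2 were 266 and 233 in CD8 T-like, 411 and 446 in NK-like, and 1126 and 1087 in macrophage-like cells, against 694 and 619, 988 and 905, and 1750 and 1891. With 1 library left out, CD8 T-like cells had 427 to 703 higher and 391 to 599 lower, the fewest without cKO replicate 2.

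Differences in cycling share, cKO minus WT in percentage points, moved as follows. Thinned to 5000 UMIs, they were −5.61 in T-like, −10.43 in conventional CD4 T-like, −2.30 in B-like, −0.10 in non-classical monocyte-like, 1.67 in cDC1-like, −8.86 in migratory DC-like and −0.45 in pDC-like cells. Thinned to 1500, they were −1.61 in NK-like, −0.46 in B-like, 0.12 in monocyte-like, 0.38 in non-classical monocyte-like, −4.60 in migratory DC-like and 0.88 in ungated cells. The looser call gave 4.13 in Treg-like, −2.69 in B-like, 1.25 in cDC2-like, −4.69 in conventional CD4 T-like, 0.97 in pDC-like, −2.44 in non-classical monocyte-like and 4.03 in ungated cells. With the stricter call, they were −1.84 in conventional CD4 T-like, −0.16 in B-like, 0.11 in monocyte-like, 0.00 in non-classical monocyte-like, −2.17 in migratory DC-like and 1.36 in ungated cells. With the stricter gate, they were 3.83 in Treg-like, −2.33 in gamma-delta T-like, −2.23 in non-classical monocyte-like, 1.73 in cDC2-like and 2.61 in ungated cells. With gates set in the thinned cell, they were −0.12 in non-classical monocyte-like, −5.32 in migratory DC-like and 1.83 in ungated cells. Keeping doublets gave −0.92 in non-classical monocyte-like cells, and leaving out the shared barcodes gave −5.36 in migratory DC-like cells. Leaving out 1 library at a time gave −6.56 to −5.41 there.

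With Pcna, Dut and the 6 Mcm genes left out of the S members, the S share was 39.5% in T-like, 40.1% in CD8 T-like, 36.6% in Treg-like, 47.3% in gamma-delta T-like, 34.2% in conventional CD4 T-like, 44.9% in NK-like, 54.6% in B-like, 32.6% in macrophage-like, 38.9% in monocyte-like, 35.4% in non-classical monocyte-like, 45.1% in cDC1-like, 35.5% in cDC2-like, 42.8% in migratory DC-like and 46.1% in pDC-like cells.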
